A study of Homo sapiens with 3 samples.

Results

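Genomic positions that the peak lists assign to more than 1 gene are the subject here. They come from sCLIP of the protein CSTF2tau in wild-type BE(2)-C, an established cell line from a human neuroblastoma, for which the labels give no treatment. sCLIP fixes proteins onto RNA with ultraviolet light, pulls down the protein with an antibody (here A301-486A) and sequences the RNA fragments that stay attached. The labels give 3 biological replicates of 1 group, and no control library was used here. Within each replicate, same-strand peaks of the nuclear chromosomes with an overlap of 1 nt or more were joined into clusters. Clusters whose peaks carried 2 or more Ensembl gene IDs were kept, outside hg19 chr5:140165000-140895000. This left 8670 clusters of 190714: 4319 in replicate 1, 975 in replicate 2 and 3376 in replicate 3.

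CSTF2tau is a paralogue of CSTF2 and part of the cleavage stimulation factor, which binds U- and GU-rich RNA downstream of the poly(A) signal when a transcript is cut and polyadenylated. Human genes overlap on the same strand in several known ways. A short gene can sit within an intron of a longer one, neighbouring genes can share a promoter or a last exon, and a readthrough transcript can run from one gene into the next. Where genes overlap on one strand, an RNA fragment from the overlap matches each of them, so a peak there can be assigned to several genes without naming the transcript it came from. The lists hold no gene names, and 0 of the nuclear IDs matched a symbol in the RefSeq table used here. Genes are therefore given by ID and hg19 position, and the labelled cell type was not checked against marker genes.

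Clusters with several gene IDs were a small part of each list, but took slightly more than their number in reads. They made up 4.34% of the nuclear clusters of replicate 1 (4.22 to 4.47%, 95% exact Clopper-Pearson bounds). Replicate 2 had 5.76% (5.41 to 6.12%), and replicate 3 had 4.54% (4.39 to 4.69%). The number at the end of each peak name was read as the reads in the peak, which no source states. On that reading the clusters held 37660 of 692472, 7321 of 97505 and 19008 of 361798 nuclear reads, or 5.44%, 7.51% and 5.25%. The mean share of reads was 6.07% ± 1.25 (SD, n = 3), with replicate 2 the highest and the other replicates close together. A cluster took its reads from the gene ID with the most. Intervals cover counting error only.

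Nearly all of these clusters carried exactly 2 gene IDs. There were 3974, 850 and 3123 such clusters in replicates 1, 2 and 3, while 315, 121 and 241 had 3 IDs and 30, 4 and 12 had 4. Their median was 6, 6 and 4 reads, against 5, 4 and 4 in clusters with 1 ID. Median widths were 89, 80 and 71 nt, against 79, 72 and 69 nt.

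Chromosome 19, one of the most gene-dense human chromosomes, had the highest share in every replicate: 10.1%, 13.1% and 12.4% of its clusters carried several IDs, a mean of 11.8% ± 1.57 (SD, n = 3). Chromosome 14 came next by mean, with 6.17%, 7.17% and 7.82%. The lowest mean was that of chromosome 4, with 1.18%, 3.30% and 1.64%. In replicates 1 and 3 no chromosome other than 19 passed 8%, and in replicate 2 chromosome X reached 10.2% and chromosome 12 8.64%.

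The minus strand held 55.0%, 61.6% and 68.4% of the reads of these clusters, against 48.6%, 49.3% and 63.2% in clusters with 1 ID. Without the 20 pairs of gene IDs with the highest mean share of reads the values were 48.6%, 52.4% and 63.2%. The first pair alone, on chr3, holds 6.58% to 9.14% of the reads in clusters with several IDs.

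Most clusters with several IDs consisted of 2 lines, 1 for each ID, whose peaks had the same or nearly the same position. In clusters of exactly 2 lines, the lines had identical coordinates in 2122 of 3936 clusters (53.9%) of the first replicate, 446 of 843 (52.9%) of the second and 2383 of 3121 (76.4%) of the third. With identical coordinates the reads were equal in 2121 of 2122, 446 of 446 and 2383 of 2383 cases, but the deposited p-value was equal in only 81.1%, 87.9% and 75.7%.

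In most other clusters the peak of 1 ID lay inside that of the other ID, in 44.3%, 43.7% and 23.3% of the clusters of 2 lines. Here the p-value was never equal, in 0 of 1742, 0 of 368 and 0 of 726 clusters, and the reads were equal in 21.9%, 26.9% and 41.6%. The lists also give, for each peak, a stretch of at most 4 nt inside it. This stretch was the same under both IDs in 90.6%, 90.5% and 94.1% of these clusters, so the peaks mostly differed in their edges and not in this stretch. Peaks that overlapped only in part made up 1.83%, 3.44% and 0.384%.

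**Figure D1:**
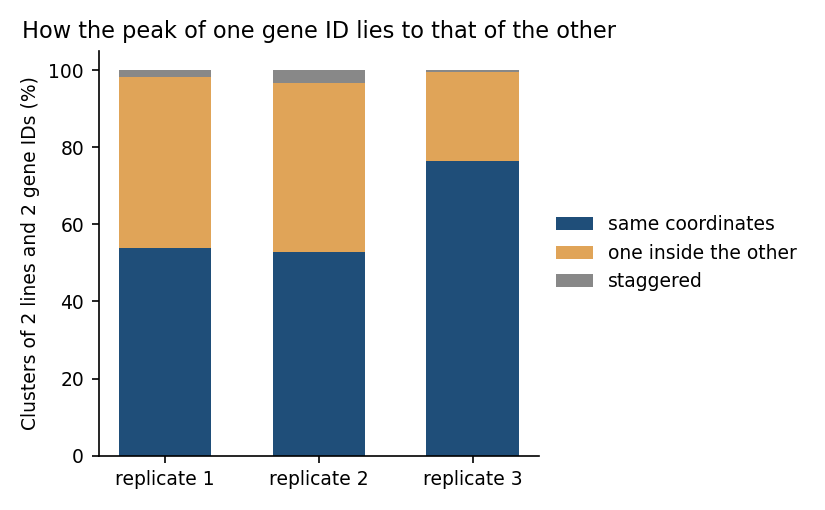
Bars give the percent of clusters with exactly 2 lines and 2 gene IDs (y axis) in each replicate (x axis), split by how the 2 peaks lie to each other. Identical coordinates reach 76.4% in replicate 3, against 53.9% and 52.9% in replicates 1 and 2.

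Pairs of IDs were then classed by their listed spans. A listed span runs from the first to the last peak of a gene ID over all 3 lists, and is no annotated gene boundary. Where a shorter span lay inside a longer one and the peaks differed in width, the longer gene mostly had the wider peak. This held in 839 of 985 clusters of replicate 1 (85.2%, bounds 82.8 to 87.3%). The counts were 171 of 192 in replicate 2 (89.1%, 83.8 to 93.1%) and 340 of 418 in replicate 3 (81.3%, 77.3 to 85.0%), for a mean of 85.2% ± 3.86 (SD, n = 3). The median difference in width was 22, 21 and 15 nt. The longer gene also had the lower deposited p-value in 76.3%, 70.8% and 66.7% of them. Clusters at an end of the longer span were left out, since there the class itself decides which peak is wider. Without the pair with the most such clusters, the longer gene had the wider peak in 84.0%, 87.2% and 78.9%.

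Across the replicates 1694 pairs of gene IDs shared at least 1 cluster, and they involved 2595 of 13281 nuclear IDs. The reads given for a pair are those at its shared clusters, each cluster taken from whichever ID of the pair had more. Most pairs were nested. In 1132 pairs (66.8%) 1 span lay inside the other, in 406 (24.0%) the spans were staggered, each reaching past the other, and in 156 (9.21%) they were identical. Nested pairs held 66.6%, 66.4% and 64.9% of the reads in clusters with several IDs, staggered pairs 33.1%, 35.4% and 33.8%, and identical pairs 6.38%, 9.04% and 7.81%. A cluster with 3 or 4 IDs counts in more than 1 class. In 74 of the 156 identical pairs (47.4%) an ID had a single cluster, and in 82 both IDs had at least 2 clusters. The identical class rose to 15.2% of pairs without replicate 1.

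Nested pairs differed in where the shorter span lay. In 499 pairs it lay away from both ends of the longer one, by over 1 kb. In 65.9% of these 499 pairs 1 of the spans was under 1 kb long, and in 44.7% 1 ID had a single cluster. In 351 the spans shared their 5' end within 1 kb, in 235 the 3' end and in 47 both. Pairs with a shared 5' end were the most often listed in all 3 replicates, 84 of 351 (23.9%), against 36 of 235 (15.3%) with a shared 3' end and 50 of 499 (10.0%) with neither. Their median was 21 reads over all replicates, against 9 and 8, so the classes also differ in reads.

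Over all arrangements, 618 pairs shared a 5' end and 491 a 3' end. Pairs with a shared 5' end held 49.9% ± 2.81 (SD, n = 3) of the reads in clusters with several IDs, and those with a shared 3' end held 22.3% ± 1.14. With ends taken as shared within 5 kb, the shared 5' end covered 45.9% of pairs in place of 36.5%, and the shared 3' end 40.8% in place of 29.0%. In 35.9% of the pairs with a shared 5' end and 49.5% of those with a shared 3' end, 1 of the spans was under 1 kb long.

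**Figure D2:**
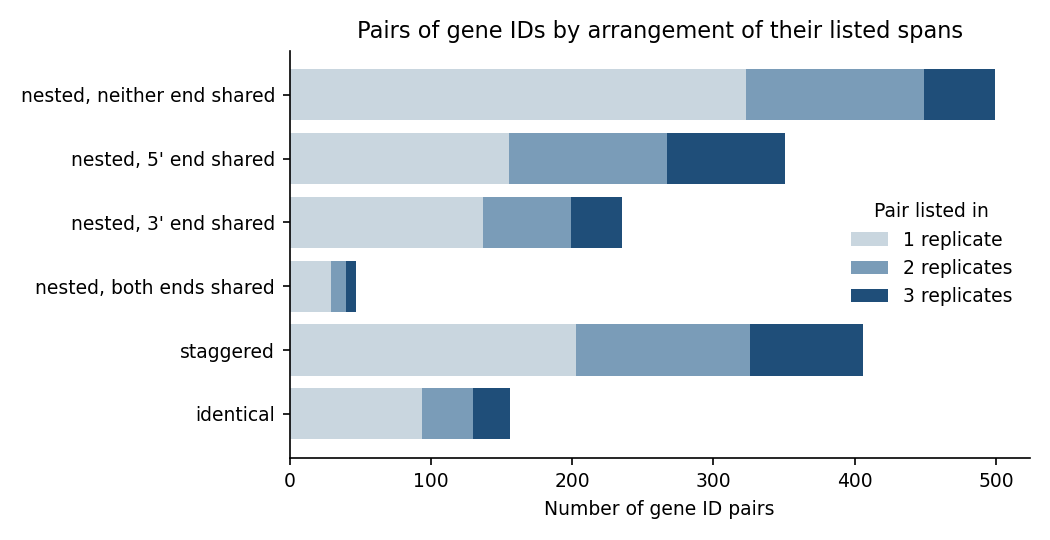
Bars give the number of gene ID pairs (x axis) in each arrangement of their listed spans (y axis), with shades for pairs listed in 1, 2 or 3 replicates. Nested pairs with neither end shared are the largest class with 499 pairs, of which 50 were listed in all 3 replicates.

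For many of the shorter genes no read was their own. Of the 2595 IDs in pairs, 1258 (48.5%) had every listed read in a cluster shared with another ID. Among the 1007 IDs that were only ever the shorter member of a nested pair this was true of 874 (86.8%), with a median listed span of 0.579 kb. Among the 882 that were only ever the longer member it was true of 96 (10.9%), with a median span of 51.4 kb and a median of 31.6% of their reads in shared clusters. The direction of the nesting follows from spans drawn from the same peaks. A paired ID with a single cluster also has all its reads shared by construction, and 423 of 1132 nested pairs held such an ID. These counts are therefore descriptions. By replicate, 48.4%, 48.7% and 51.7% of the IDs in pairs that were listed there had no cluster of their own.

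A gene that overlaps another did not always carry all the peaks of the overlap. Within the overlap of nested spans, 67.4%, 62.7% and 72.1% of the clusters were listed under both IDs. The longer gene alone had 25.6%, 25.7% and 16.2%, and the shorter gene alone 7.06%, 11.6% and 11.8%. Clusters of 1 ID alone can include those of a replicate that lists the other ID nowhere. An example is 61 clusters of ENSG00000243319 in replicate 3, where the longer ENSG00000102466 was not listed. In staggered pairs both IDs were listed at 1519 of 2530, 369 of 601 and 1121 of 1642 clusters, a mean of 63.2% ± 4.41, against 67.4% ± 4.71 in nested pairs (SD, n = 3). The nested share was higher by 7.33, 1.26 and 3.81 points, a mean of 4.13 ± 3.05, in 3 of 3 replicates (exact two-sided sign-flip permutation test, p = 0.25, the smallest possible with n = 3). In 37.4% of nested pairs but 3.94% of staggered pairs, 1 ID had a single cluster. Its overlap is that shared cluster, which favours the nested share by construction, so nothing is concluded from the test. Which transcripts, exons or introns each gene has in the annotation used for the lists was not analysed here.

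The pair with the most reads lay on the minus strand of chr3. ENSG00000185565 (chr3:115521383-117715978) and ENSG00000239268 (chr3:117391380-117716393) have 5' ends within 415 nt of each other and overlap over 325 kb. Their shared clusters had 3118, 482 and 1733 reads in replicates 1, 2 and 3, which is 0.450%, 0.494% and 0.479% of nuclear reads, a mean of 0.475% ± 0.0224 (SD, n = 3). This was the most even of the 20 pairs with the highest mean share, with 1.10-fold between the highest and the lowest replicate. The longer gene extended far beyond the overlap, and 29.5% of its reads lay in shared clusters, against 99.6% for the shorter gene.

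The listing of this pair differed between replicates although its share did not. In replicates 1 and 2, 242 and 66 clusters of the overlap were listed under both IDs and a further 183 and 77 under the longer gene alone. In replicate 3 all 212 were listed under both, and both IDs had the same 1733 reads. In replicate 1 the longer gene had 3116 reads at the shared clusters and the shorter 2542, and in replicate 2 they had 482 and 379.

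**Figure D3:**
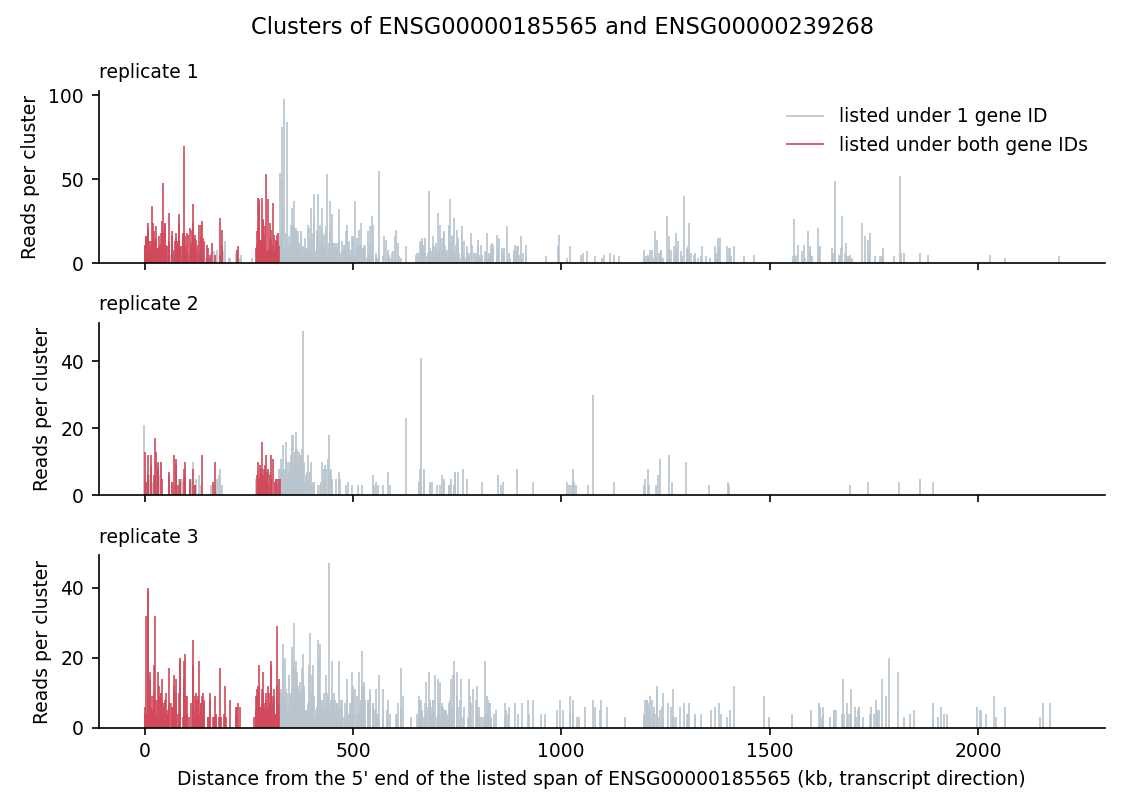
Each line is a cluster of the chr3 pair, at its distance in kb from the 5' end of the listed span of ENSG00000185565 (x axis), with its height in reads (y axis), 1 panel per replicate. The clusters listed under both IDs, 520 in all, lie in the first 325 kb, and in replicate 3 no cluster of that stretch is listed under 1 ID.

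Among the pairs listed in every replicate, the next by mean share were nested. ENSG00000227248 (chr13:108440715-108487751, minus strand) lay within ENSG00000204442 (chr13:107821338-108518283), and all of its reads were in clusters shared with that gene. The pair had 1916, 224 and 803 reads, or 0.277%, 0.230% and 0.222% of nuclear reads, a mean of 0.243% ± 0.0296. These levels lay close together, and only 13.4% of the reads of the longer gene lay in shared clusters. A further 128, 19 and 27 clusters inside the shorter span were listed under the longer gene alone, beside 124, 28 and 55 under both.

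On chromosome X, ENSG00000271430 (chrX:73420687-73461123, minus strand) lay within ENSG00000230590 (chrX:73238788-73512402). The pair had 521, 323 and 365 reads, or 0.0752%, 0.331% and 0.101%, with replicate 2 well above the others. On chr1, ENSG00000242125 (chr1:28832915-28837030, plus strand) started 12 nt from ENSG00000180198 (chr1:28832903-28862840). That pair had 153, 249 and 88 reads, or 0.0221%, 0.255% and 0.0243%, again highest in replicate 2. Without replicate 2, the mean share fell from 0.169% to 0.0881% for the chrX pair and from 0.101% to 0.0232% for the chr1 pair.

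Further plus-strand pairs lay on chr4, chr11 and chr6. ENSG00000248266 and ENSG00000218336 on chr4 (plus strand) started within 16 nt, at position 183066281, and had 389, 163 and 168 reads, or 0.0562%, 0.167% and 0.0464%. ENSG00000248643 (chr11:66384660-66414014, plus strand) and ENSG00000173933 (to position 66433605) had the same first listed position and 269, 107 and 181 reads, a mean share of 0.0662% ± 0.0381 (SD, n = 3). On chr6, ENSG00000233844 (chr6:73340678-73388249, plus strand) within ENSG00000185760 had 358, 87 and 197 reads, or 0.0517%, 0.0892% and 0.0544%, a range of 1.73-fold against 11.6-fold for the chr1 pair. Without replicate 2 the mean of the chr4 pair fell from 0.0899% to 0.0513%.

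Staggered pairs with a shared 5' end stood on chr11, chr20 and chr15. On the minus strand of chr11, ENSG00000129965 (chr11:2153684-2160515) and ENSG00000167244 (chr11:2150401-2159912) had 185, 160 and 147 reads in 6, 9 and 11 shared clusters, or 0.0267%, 0.164% and 0.0406%. Of the reads of the first ID 70.2% were shared, and of the second 18.4%. ENSG00000089006 (chr20:17922194-17948422) and ENSG00000125850 (chr20:17937651-17949124), also on the minus strand, had 378, 126 and 104 reads, or 0.0546%, 0.129% and 0.0287%. Here ENSG00000125850 alone had 26, 7 and 14 further clusters in the overlap and ENSG00000089006 alone had none. On chr15, minus strand, ENSG00000128973 (chr15:68499241-68521273) and ENSG00000260007 (chr15:68487115-68521003) had 280, 76 and 83 reads, or 0.0404%, 0.0779% and 0.0229%. Without replicate 2 the mean fell from 0.0771% to 0.0337% for the chr11 pair and from 0.0709% to 0.0417% for the chr20 pair.

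At several places 3 gene IDs were stacked over the same peaks. On chr20, minus strand, ENSG00000124208 and ENSG00000240849 had identical spans (chr20:48699843-48766897), and ENSG00000244687 shared their 3' end (chr20:48699843-48731943). The identical pair had 106, 139 and 219 reads, or 0.0153%, 0.143% and 0.0605%. The pairs with ENSG00000244687 had 97, 139 and 191 reads. In none of the 3 replicates did any of these IDs have a read outside shared clusters.

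On chr19, minus strand, ENSG00000130383 and ENSG00000267740 had identical spans (chr19:5893115-5901253), with ENSG00000174886 from position 5893215 to the same 5' end. The identical pair had 29, 183 and 45 reads, or 0.00419%, 0.188% and 0.0124%. This 44.8-fold range was the widest of the 20 pairs, and without replicate 2 the mean fell from 0.0681% to 0.00831%. That of the identical pair on chr20 fell from 0.0728% to 0.0379%. On chr6, minus strand, ENSG00000214338 and ENSG00000255330, with identical spans (chr6:127760760-127840126), had 274, 34 and 131 reads. Their shares of 0.0396%, 0.0349% and 0.0362% lay within 1.13-fold. The next identical pairs were ENSG00000125459 with ENSG00000203761 (chr1:155635469-155712538, plus strand), with 256, 17 and 79 reads, and ENSG00000131503 with ENSG00000254996 (chr5:139781719-139928646, plus strand), with 276, 17 and 47. In replicate 3, ENSG00000131503 had a further 16 clusters under its ID alone.

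On the minus strand, 3 further nested pairs had their listed 5' ends at the same position. ENSG00000137726 within ENSG00000255245 (chr11:117694750-117747254) had 158, 122 and 46 reads. ENSG00000212127 within ENSG00000111215 on chr12 had 174, 48 and 219, and is the 1 pair of the 20 highest in replicate 3. ENSG00000136240 within ENSG00000164535 (chr7:6451812-6523083) had 175, 77 and 68.

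Of the 20 pairs with the highest mean share among those in every list, 14 were nested, 4 staggered and 2 identical, and 6 of the 20 belong to the stacks of 3 IDs on chr20 and chr19. Replicate 2 had the highest share in 18 of the 20, and in 147 of all 283 pairs listed in every replicate. Ranking by mean share itself favours pairs with a high share in 1 replicate. A listing also needs at least 3 reads, which is 0.00308% of nuclear reads in replicate 2 but 0.000433% in replicate 1 and 0.000829% in replicate 3. Asking for a listing in every replicate therefore favours pairs with a high share in replicate 2. Leaving replicate 2 out lowered the mean share of 13 pairs by over 1.5 times, and leaving out replicate 1 or 3 moved none of the 20 by that much. The median range between replicates was 4.45-fold for these 20 and 3.71-fold for all 283 pairs listed in every replicate. In 56 of the 283 (19.8%) it stayed under 2-fold.

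**Figure D4:**
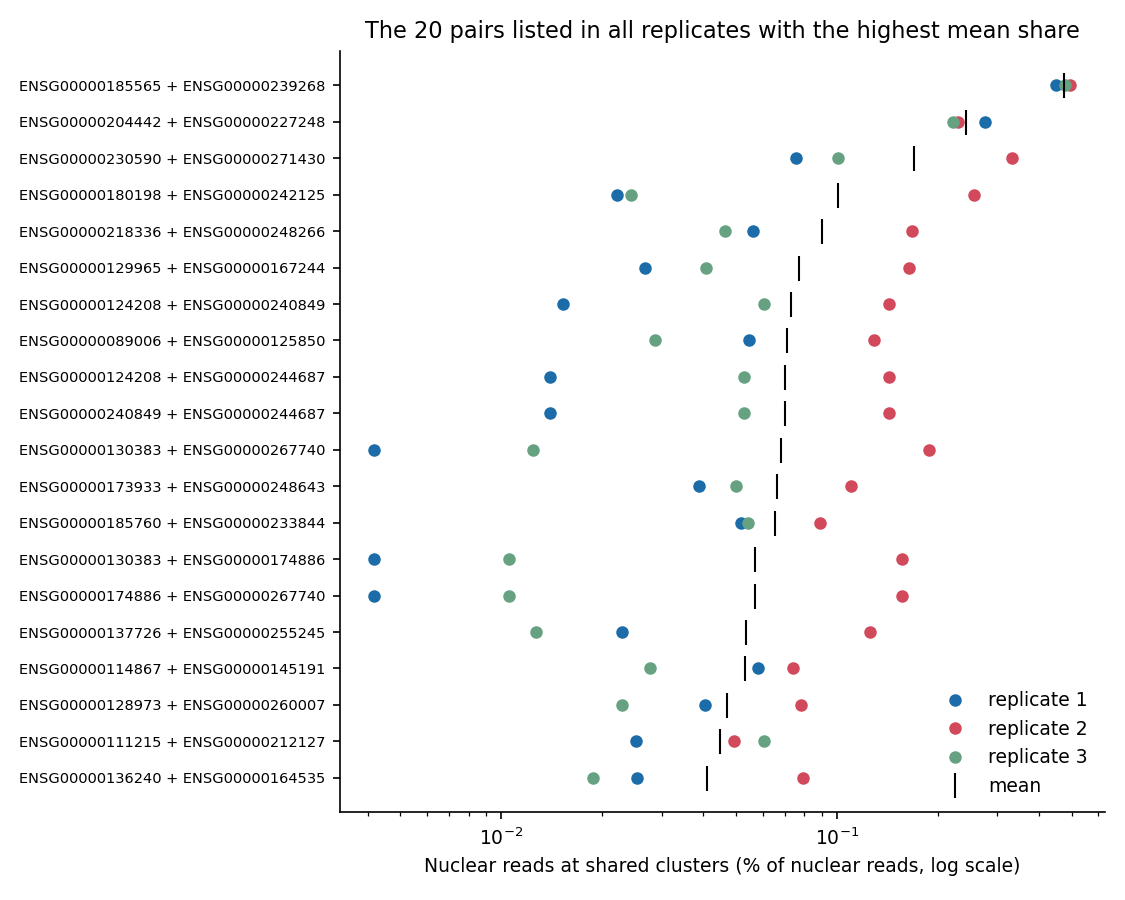
Points give the share of nuclear reads at the shared clusters of a pair (x axis, percent, log scale) in each replicate, and ticks the mean, for the 20 pairs in every list whose mean share was highest (y axis, gene IDs). The chr3 pair at the top has 0.450% to 0.494% in the replicates. Replicate 2 is the highest point in 18 of the 20, against 147 of all 283 pairs in every list.

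A number of gene IDs linked genes that do not touch each other, as a readthrough gene does. An ID was called bridging when it shared clusters with at least 2 IDs whose own listed spans do not overlap, and 243 IDs met this. In 85 of them all partners lay inside the bridging span, which is also what a long gene with several intronic genes gives. In 55 IDs the span began with 1 partner and ended with another, within 1 kb at both ends, in 57 such trios. This end-to-end arrangement was defined after the spans had been seen. In 175 of the 577 pairs that held a bridging ID (30.3%), 1 of the spans was under 1 kb long. A partner that short can meet the 1 kb limit through a single shared cluster at an end of the bridging span. The trios are therefore a description of listed spans, and readthrough was not tested. In 7 trios the shared clusters at both sides were listed in all 3 replicates, and in 31 the bridging ID had reads between its partners in at least 1 replicate.

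On chr10, minus strand, ENSG00000258539 (chr10:126307760-126477188) ran from ENSG00000203791 (chr10:126438856-126477199) to ENSG00000189319 (chr10:126307771-126427240). The clusters it shared with the upstream gene held 87, 3 and 37 reads, and those with the downstream gene 52, 6 and 64. Each cluster counts the ID with more reads, and ENSG00000258539 itself had 122, 9 and 101 reads in all. It had 0 reads in the 11.6 kb between its partners in every replicate. On chr2, plus strand, ENSG00000258984 (chr2:238888453-239007592) joined ENSG00000184182 and ENSG00000132330. The shared clusters held 51, 6 and 14 reads upstream and 174, 23 and 39 downstream. Between its partners, over 32.2 kb, ENSG00000258984 had 3, 0 and 0 reads.

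In a further trio, on chr14 (plus strand), the clusters of ENSG00000258790 (chr14:35601878-35786725) shared with ENSG00000100890 held 36, 3 and 36 reads. Those shared with ENSG00000100902 held 35, 4 and 14. Over the 8.42 kb between its partners ENSG00000258790 had 9, 0 and 3 reads. The trio with the most reads was on chr11, where ENSG00000167244 spans from ENSG00000129965 to ENSG00000240801 (chr11:2150414-2150718) within the 1 kb limit. The span of ENSG00000129965 reached past the 5' end of ENSG00000167244, so that pair was staggered. The span of ENSG00000240801 was under 1 kb long. Which of these IDs, if any, is a readthrough gene was not tested. Most reads of ENSG00000167244 lay between its partners, 1558, 501 and 407, so it differs from the bridging ID of the chr10 trio. It had 0, 77 and 117 reads at the clusters shared with ENSG00000240801, an ID that was not listed in replicate 1.

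Few IDs had many partners. Of the 2595 IDs, 1988 had 1 partner and 35 had 4 or more. The highest number was 8, for ENSG00000145191 (chr3:183853317-184300186, plus strand), which had 844, 124 and 171 reads, with 62.9%, 79.8% and 81.3% of them in shared clusters. Of its partners 7 lay inside its span. The clusters shared with the strongest, ENSG00000114867 (chr3:184034699-184053212), had 403, 72 and 100 reads under ENSG00000145191 and 283, 58 and 85 under ENSG00000114867.

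Next was ENSG00000197757 (chr12:54390671-54424563, plus strand) with 7 partners and 60, 77 and 68 reads, all in shared clusters. ENSG00000172789 (chr12:54382059-54426705) in the same stretch had 6 partners and 0, 90 and 76 reads. ENSG00000111215 (chr12:10977576-11321827, minus strand), also with 6, had 378, 51 and 256 reads. By contrast, ENSG00000171044 (chr8:10886701-11057309, minus strand) had 6 partners but only 5.96% of its 674, 276 and 477 reads in shared clusters.

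The next comparison asked how often these positions came back in another replicate. Of the clusters with several IDs in replicate 1, 23.3% were met by a cluster from elsewhere (exact bounds 22.0 to 24.6%). The share was 45.4% in replicate 2 (42.3 to 48.6%) and 25.7% in replicate 3 (24.2 to 27.2%). For clusters with 1 ID the values were 14.9%, 34.4% and 16.3%. The difference was 8.40 percentage points in replicate 1 and 9.38 in replicate 3, and larger in replicate 2, a mean of 9.60 ± 1.32 (SD, n = 3). It was above 0 in 3 of 3 replicates (exact two-sided sign-flip permutation test, p = 0.25, the smallest possible with n = 3). It was 6.39 points without replicate 3, where each cluster can be found in 1 other list only.

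The difference was smaller when clusters of like reads and width, or of the same genes, were compared. Within classes of reads and width it was 6.39, 5.35 and 6.31 points. Against clusters with 1 ID from the 2595 genes in pairs alone, where 19.5%, 42.2% and 23.3% came back, it was 3.76, 3.24 and 2.39 points. With both limits it was 3.70, -0.502 and 1.57 points, a mean of 1.59 ± 2.10, higher in 2 of 3 replicates (exact sign-flip permutation test, p = 0.5, n = 3). That difference is within the spread of the replicates. The limit to genes in pairs was chosen after the data had been seen.

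Recovery rose with reads in both kinds of cluster. Among clusters of 3 to 4 reads, 11.8%, 29.0% and 12.8% of those with several IDs came back, against 8.85%, 25.7% and 10.2% of those with 1 ID. Among clusters of 20 reads or more these were 55.6%, 84.4% and 94.3%, over 284, 45 and 53 clusters, against 39.0%, 68.7% and 80.2%.

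**Figure D5:**
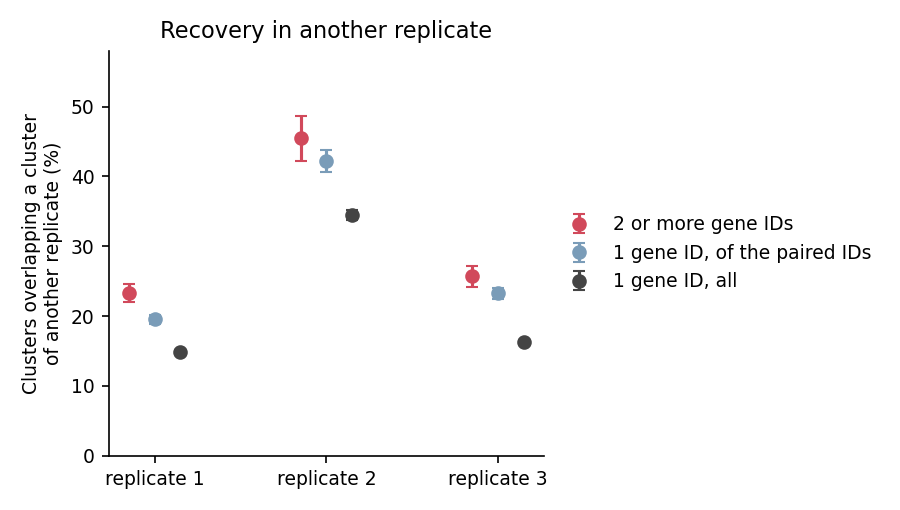
Points give the percent of clusters with a same-strand overlap of 1 nt or more in either other list (y axis) in each replicate (x axis), with 95% exact intervals. Clusters with several IDs reach 23.3%, 45.4% and 25.7%, and those with 1 ID from the genes in pairs 19.5%, 42.2% and 23.3%.

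Where a position did come back, its gene IDs often did not. Merged over all replicates, 7637 of 171887 loci (4.44%) carried several IDs in 1 replicate or more, and 220 of them had clusters in all 3 replicates, 1062 in exactly 2 and 6355 in 1. The same split over all 171887 loci is not given here. Of the 1282 loci in 2 or 3 replicates, 602 (47.0%) had the same set of IDs in each. The other 680 lacked at least 1 ID in at least 1 replicate, 841 absences in all. In 523 absences the missing ID was listed elsewhere in that replicate, and in 318 (37.8%) it was nowhere in that list.

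The strongest loci, picked here after their values were seen, show both cases. At chr1:28836643-28837074 (plus strand) ENSG00000180198 and ENSG00000242125 were both listed in each replicate, with 59, 74 and 47 reads. At chr3:117708213-117708623 (minus strand) the chr3 pair was listed in each, with 60, 23 and 84. At chr9:97847758-97848296 (plus strand), with 42, 44 and 11 reads, ENSG00000148120 was joined by ENSG00000207864 in 1 replicate only, and the latter was not listed in the other replicates.

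The pairs themselves differed in how often they came back. Of the 1694 pairs, 283 (16.7%) were listed in all 3 replicates, 470 (27.7%) in 2 and 941 (55.5%) in 1, with medians of 76, 21 and 6 reads summed over the replicates. These sums rise by construction, since each listing adds at least 3 reads. Replicates 1, 2 and 3 listed 1134, 506 and 1090 of the pairs, and 11097, 5117 and 10728 of the 13281 nuclear IDs. The split into 3, 2 or 1 replicates is not given here for all nuclear IDs, so it is not read as a trait of pairs. A single shared cluster was all that 687 pairs had. Without replicate 2, which has the shortest list, 620 pairs were in both others. The 283 pairs held 58.6%, 75.4% and 59.7% of the reads in clusters with several IDs. Across these 283 the reads per pair of replicates 1 and 2 had Spearman rho 0.46 and Pearson r 0.51, the latter on log2(reads + 1). Replicates 1 and 3 had 0.56 and 0.62, and replicates 2 and 3 had 0.43 and 0.53. Across all 1694, rho was 0.22, 0.17 and 0.31 in the same order. Pairs can share IDs and clusters, so no p was taken.

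The 1694 pairs were absent from a replicate in 2352 cases. Only 1 of the 2 IDs was listed in that replicate in 1304 of these (55.4%), neither in 809 (34.4%), and both, but without a shared cluster, in 239 (10.2%). Replicate 2 differed, since neither ID was listed in 604 of its 1188 absences (50.8%). In replicates 1 and 3 these were 15.4% and 19.7% of 560 and 604 absences.

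The strongest of the absent pairs lacked a whole gene ID. On chr1, minus strand, ENSG00000143248 (chr1:163080823-163172593) and ENSG00000232995 (chr1:163117179-163288965) had 261 reads at their shared clusters in replicate 2 and 484 in replicate 3. ENSG00000143248 was not listed in replicate 1, where ENSG00000232995 had 49 reads, none of them inside the overlap. On chr13, minus strand, ENSG00000102466 (chr13:102442770-103054008) and ENSG00000243319 (chr13:102945447-103046374) had 965 reads at their shared clusters in replicate 1 and 144 in replicate 2. In replicate 3 the longer gene was not listed, although ENSG00000243319 had 61 clusters inside it and 619 reads in all.

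On chr8, plus strand, the clusters of ENSG00000157168 (chr8:31497351-32574522) shared with ENSG00000253974 held 1255 reads in replicate 1, and those shared with ENSG00000253222 held 559. ENSG00000157168 was not listed in replicates 2 and 3, where ENSG00000253974 had 46 and 63 clusters inside it and ENSG00000253222 had 8 and 31. On chr2, minus strand, ENSG00000273269 (chr2:47365154-47403649) had 664 reads at the clusters shared with ENSG00000143933 in replicate 1, against 517 under the latter. ENSG00000273269 was absent from the other replicates, where ENSG00000143933 had 16 and 30 clusters in the overlap. In these chr13, chr8 and chr2 cases the position had peaks in the replicate that lacked the ID. Why an ID was absent was not tested.

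In a chr20 pair, minus strand, both IDs were listed in replicate 1 but shared no cluster there. ENSG00000244005 (chr20:34221081-34257306) had 69 and 87 reads at the clusters shared with ENSG00000214078 (chr20:34215267-34252796) in replicates 2 and 3. In replicate 1 it had 5 reads, while ENSG00000214078 had 441 reads and 38 clusters in the overlap. In the chr12 stretch a whole ID was again missing: ENSG00000172789 shared 81 and 56 reads with ENSG00000198353 in replicates 2 and 3 and was not listed in replicate 1, where ENSG00000198353 had 8 clusters in the overlap.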

How the data were processed

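The authors deposited 1 peak list per replicate, in 8 columns without a header. Per the submitters' processing notes the build was hg19, and FastQC, SAMtools, STAR and bedtools were named without versions. Which program called the peaks, and with which gene models, is not given in the sources used here. Every line has a p-value as deposited by the authors, below 0.05 throughout, which served here only as a filter and as a value to compare between IDs. The peak name holds a gene ID, a running number and a number of at least 3 read as reads. The lists had 105203, 18346 and 78761 lines. Totals cover listed peaks only, so sequencing depth is unknown. The labels call the replicates biological and do not say that cultures were separate, so their spread may be partly technical.

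Merging, pairing, classes and tests were done in Python 3.11.15 with pandas 2.3.3, scipy 1.17.1 and numpy 2.4.6. The steps were tested on simulated data, where 400 of 400 planted layouts were given their class. Pairs were named by rule: the 20 pairs in every list that led by mean share of nuclear reads, the 5 highest of each class, the 5 IDs with most partners and the 10 highest pairs absent from a replicate in which at least 1 ID was listed. The members, lists and rules were chosen with earlier results of these data known. Alternatives were another overlap, stricter peaks, summed reads, other ends and spans, and leaving out each replicate. No sequence is printed, because no hg19 genome was used here.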

Additional observations from a re-analysis of the deposited data

How the results depend on the processing

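Apart from leaving out replicates, main results were recomputed 58 times: 23 values stayed within the limit (1 SD of the replicates, 1.5 times for counts, the same sign for the difference in recovery) and 35 moved, none with a change of sign. The percent of clusters and the percent of clusters with equal reads stayed within the limit in each of these, and the difference in recovery kept its sign at 1.59 to 10.1 points. Most that moved were the pair classes, which rest on listed spans. With only the peaks whose p was at most the median, 137 pairs were in all replicates in place of 283, and 139 IDs were bridging in place of 243. Nested, staggered and identical pairs were then 64.0%, 21.6% and 14.4%, and shared 3' and 5' ends 38.7% and 43.7%. With peaks of at least 5 reads these were 128 pairs, 136 bridging IDs, 65.7%, 21.7%, 12.6%, 38.4% and 42.8%. Spans from replicate 1 alone gave 62.9%, 22.7%, 14.5%, 37.5% and 43.0%, with 153 bridging IDs. Replicate 2 alone gave 55.3%, 14.8%, 29.8%, 54.7% and 67.4%, with 52, and replicate 3 alone 64.3%, 16.9%, 18.8%, 38.3% and 47.4%, with 137. With ends within 5 kb, shared 3' and 5' ends were 40.8% and 45.9%. With the reads of every line summed, 11.4% of nuclear reads lay in these clusters in place of 6.07%, since lines repeat. Leaving out 1 replicate gave 337 to 620 pairs in every replicate left, 64.5 to 66.8% nested, 18.5 to 23.4% staggered, 9.79 to 15.2% identical, and shared 3' and 5' ends of 29.6 to 35.7% and 37.3 to 45.4%. The cause of these shifts was not tested. By the definition of a listed span, fewer peaks or replicates cannot lengthen it, but span lengths were not compared between settings. Of 99 alternative values for named pairs, again without those that leave out a replicate, 93 stayed within the limit. A mean over 3 replicates cannot leave that limit when 1 is left out, so such values say nothing of stability.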
